A study of Mus musculus with 36 samples.

Results

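NIH3T3 cells, an established line of mouse embryo fibroblasts, that carried an Erbb2 transgene under tet-off control were compared after 5 days and after 24 h of tetracycline. The members are the 8 dual-colour cDNA arrays labelled with these times, 4 for each, out of 36 arrays in the series. The other arrays held RNA after 1, 2, 4 or 12 h, 3 days or 7 days of tetracycline, or RNA of untreated cells. Both groups held total RNA of the same transfected line, with no other agent named, and both were hybridised against untreated Erbb2-transfected cells in the second channel. Replicates 1 and 2 of a group carried the tetracycline sample in Cy5 and replicates 3 and 4 in Cy3. The promoter of the transgene, the number of clones and whether the replicates were separate cultures are not given in the sources used here. The p-values therefore measure a spread between arrays, which may be technical. In the main model that spread is pooled over the 35 distinct arrays of the series. The protocols in the labels speak of organs and of control animals, which does not match a cell line, and the sample names were followed.

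ERBB2, a relative of the EGF receptor, is a membrane tyrosine kinase without a known ligand of its own. Overexpressed, it activates ERK and PI3K signalling and can transform fibroblasts. In a tet-off line the transgene is transcribed until tetracycline is added, so time on tetracycline is meant as time without new transgene RNA. NIH3T3 fibroblasts normally deposit a collagen matrix and stop dividing at confluence, and transformation is known to lower matrix genes and to raise motility genes. No probe was paired with Erbb2 in the gene table used here, so the shutdown of the transgene was not analysed here.

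Each value below is a log2 ratio of the tetracycline sample to the untreated channel, centred on the median of its array, so 0 means the array's typical ratio. The files do not state which dye is the numerator. Cy3 arrays were multiplied by -1, and a positive ratio was assumed to stand for more RNA in the tetracycline sample. If that assumption were wrong, every higher and lower below would be exchanged. At 5 days 470 probes were beyond 1 in both Cy5 arrays, and before turning both Cy3 arrays were opposite in sign for 58.9% of them and equal in sign for 14.5%. At 24 h the shares were 29.7% and 19.6% of 138 probes, or 41 and 27 probes. They also favoured turning at 1 h, 2 h and 7 days, but went the other way at 4 h (36.1% opposite, 42.0% equal), 12 h (19.4% and 39.6%) and 3 days (14.8% and 47.8%). Turned values of those 3 groups are therefore doubtful. Over all probes the turned arrays of a group agreed little. Spearman correlations between arrays were 0.021 to 0.113 at 24 h and 0.047 to 0.213 at 5 days. Values of the 5 day arrays had slid against the probe rows by 1 to 4 rows, and by 1 row more in replicate 1, and were moved back before use. The 24 h arrays carried smaller ratios than the 5 day arrays, with interquartile ranges of 0.426 to 0.451 and of 0.697 to 0.814. The median SD of a probe between the 4 arrays was 0.275 at 24 h and 0.465 at 5 days. A log ratio carries no level, so background and the level of markers could not be checked.

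After 5 days the cells had higher ratios for matrix genes such as Lox and Dcn, for the factors Cebpd and Ier3 and for the acute phase gene Saa3, and lower ratios for 4 S100 calcium-binding proteins, for galectins 1 and 3, for cyclin A2, and for 10 of 58 ribosomal and 12 of 70 respiratory chain proteins. Of 17671 probes tested, 479 passed an adjusted p of 0.05 in limma, which is 2.71%. Of these, 270 (1.53%) were higher and 209 (1.18%) were lower at 5 days. Averaged over the probes of a gene, 192 of 8955 genes passed (2.14%), 89 higher (0.994%) and 103 lower (1.15%). The spread in this model came from all 35 distinct arrays of the series. A model of the 8 arrays alone called 199 probes, 119 higher and 80 lower, and 183 of them were among the 479. Without the 3 day arrays, a choice made after seeing the data, 886 probes passed, 442 higher and 444 lower, and all 479 were among them. Without the 4 h, 12 h and 3 day arrays 627 passed, 317 higher and 310 lower, and 439 of the 479 were among them. Both fits kept the 8 arrays of the comparison and mainly changed the spread. The 3 day arrays were the most scattered (median SD 0.731), so keeping the calls is no separate test of them. After quantile normalization 250 probes passed, and the balance turned to 110 higher and 140 lower.

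The 2 dyes gave 2 separate readings of the same difference. All 270 higher and all 209 lower probes had the same sign in the Cy5 pair and in the Cy3 pair, as the call itself nearly requires, against 51.7% of all probes. The 4 arrays of 5 days did not overlap with the 4 arrays of 24 h for 259 of the higher and 194 of the lower probes, against 9.43% of all probes tested (4.93% higher and 4.5% lower). A call on these same arrays nearly requires that too. This share and those that follow therefore describe the calls and are no separate support for them. The lower probes had a median ratio of 0.28 at 24 h and -0.71 at 5 days, and 185 of the 209 lay on opposite sides of 0 at the 2 times. The higher probes had a median of 0.09 at 24 h and 1.18 at 5 days, and 100 of the 270 lay on opposite sides, against 48.4% of all probes.

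**Figure D1:**
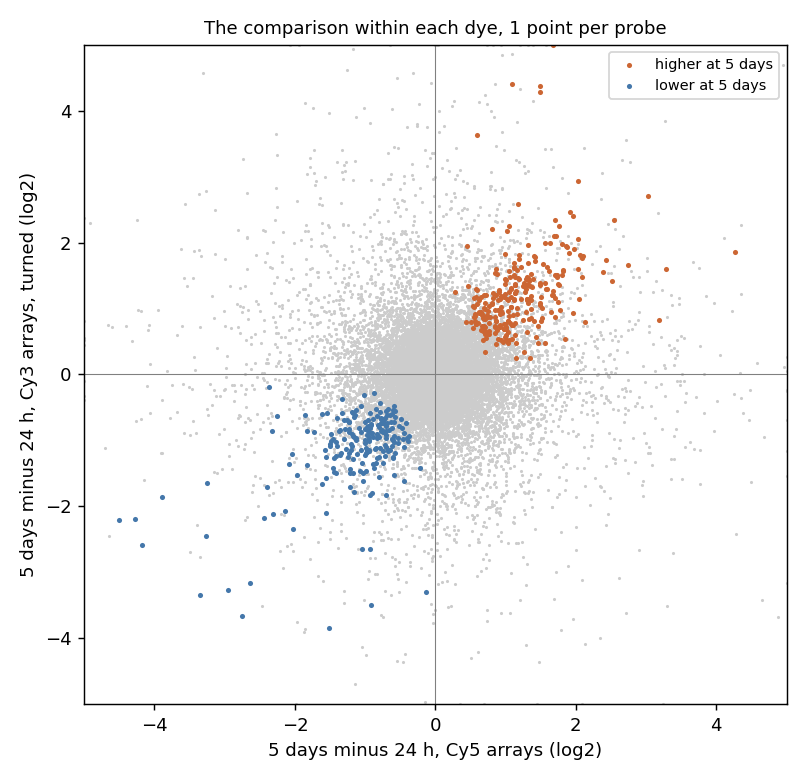
Each point is 1 of 17671 probes, with the log2 difference of 5 days minus 24 h in the Cy5 arrays on the x axis and in the turned Cy3 arrays on the y axis. The 270 higher probes all lie above 0 on both axes and the 209 lower probes below 0 on both, and 37 points beyond 5 are drawn at the edge.

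The matrix genes are described first. Lox, the lysyl oxidase that crosslinks collagen and elastin, was at -0.28, -0.45, -0.30 and -0.16 in the 24 h arrays and at 1.51, 1.64, 1.56 and 1.48 in the 5 day arrays. Every 5 day array lay far above every 24 h array, and the difference was 1.84 ± 0.15 (SE), or 3.59-fold (limma, adjusted p = 5.82e-09). Dcn, the small proteoglycan decorin that binds collagen fibrils, was at -0.72, -1.06, -0.86 and -0.68 at 24 h and at 0.80, 0.87, 0.84 and 0.62 at 5 days. It went from below to above the array's typical ratio in all 4 arrays, a rise of 1.61 ± 0.19 (SE), 3.06-fold (limma, adjusted p = 2.34e-06). Ccdc80, a secreted protein bound to the matrix, was at -0.61, -0.87, -0.73 and -0.72 at 24 h and at 1.06, 1.41, 1.14 and 1.21 at 5 days, without overlap and 3.83-fold higher (limma, adjusted p = 7.58e-06).

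Of all genes tested 0.994% passed as higher and 1.15% as lower, and 4564 of 8955 differences were positive. Of 51 genes tested in the list of structural matrix genes, 6 rose and none fell. The list had 31 positive differences and a median of 0.24 against 0.01 over all genes tested. Besides Lox and Dcn the 6 were Ogn (1.32 ± 0.21), a small proteoglycan, Col6a1 (0.87 ± 0.19), a chain of collagen VI, and the fibulins Fbln2 (0.60 ± 0.12) and Fbln5 (0.73 ± 0.18), each as log2 difference ± SE. Ogn moved from -0.31, -0.40, -0.58 and -0.86 to 1.07, 0.73, 0.72 and 0.62, so its lowest 5 day array stood well above its highest 24 h array. The other 45 genes did not pass, which does not show that they stayed level. In the model of the 8 arrays alone Lox, Dcn, Ccdc80 and Ogn passed, and Col6a1, Fbln2 and Fbln5 did not. The call on Fbln5 was also lost without 5d replicate 1 (0.71), 5d replicate 2 (0.59), 24h replicate 1 (0.67) or 24h replicate 4 (0.70).

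Among 11 adhesive and matricellular glycoproteins 3 rose (against 0.994% of all genes) and none fell (against 1.15%). Postn, periostin, a collagen-binding matrix protein, was the lowest of them at 24 h, at -2.18, -1.53, -1.93 and -1.55. At 5 days it was at -0.91, -0.56, -0.37 and -0.85, so it rose by 1.13 ± 0.26 (SE; limma, adjusted p = 0.0121) and still lay below 0 in all 4 arrays. Thbs2, a thrombospondin, rose by 0.79 ± 0.16 and Ccn1, a growth factor-induced matrix signal also called Cyr61, by 0.92 ± 0.24. Ccn1 went from -0.68, -1.19, -0.72 and -1.06 to -0.18, 0.29, -0.13 and 0.07, which is a return to about 0. None of the 3 passed in the model of the 8 arrays. The call on Postn was lost without 24h replicate 1 (1.02) or 24h replicate 3 (1.06), and that on Ccn1 without any 1 of 6 arrays, at 0.81 to 0.98.

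Of 15 matrix proteases and inhibitors 2 rose (against 0.994% of all genes) and none fell (against 1.15%). Adamts1, a secreted protease that cuts proteoglycans, was at -0.60, -0.82, -0.48 and -0.60 at 24 h and at 1.10, 1.01, 0.94 and 0.68 at 5 days. Mmp2, the gelatinase that fibroblasts secrete, was at -0.16, -0.29, -0.29 and -0.45 at 24 h and at 1.05, 1.14, 0.86 and 1.11 at 5 days. Both moved across 0 without overlap, by 1.56 ± 0.22 (SE; limma, adjusted p = 5.14e-05) and by 1.34 ± 0.22 (adjusted p = 0.000356), and both passed in the model of the 8 arrays.

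**Figure D2:**
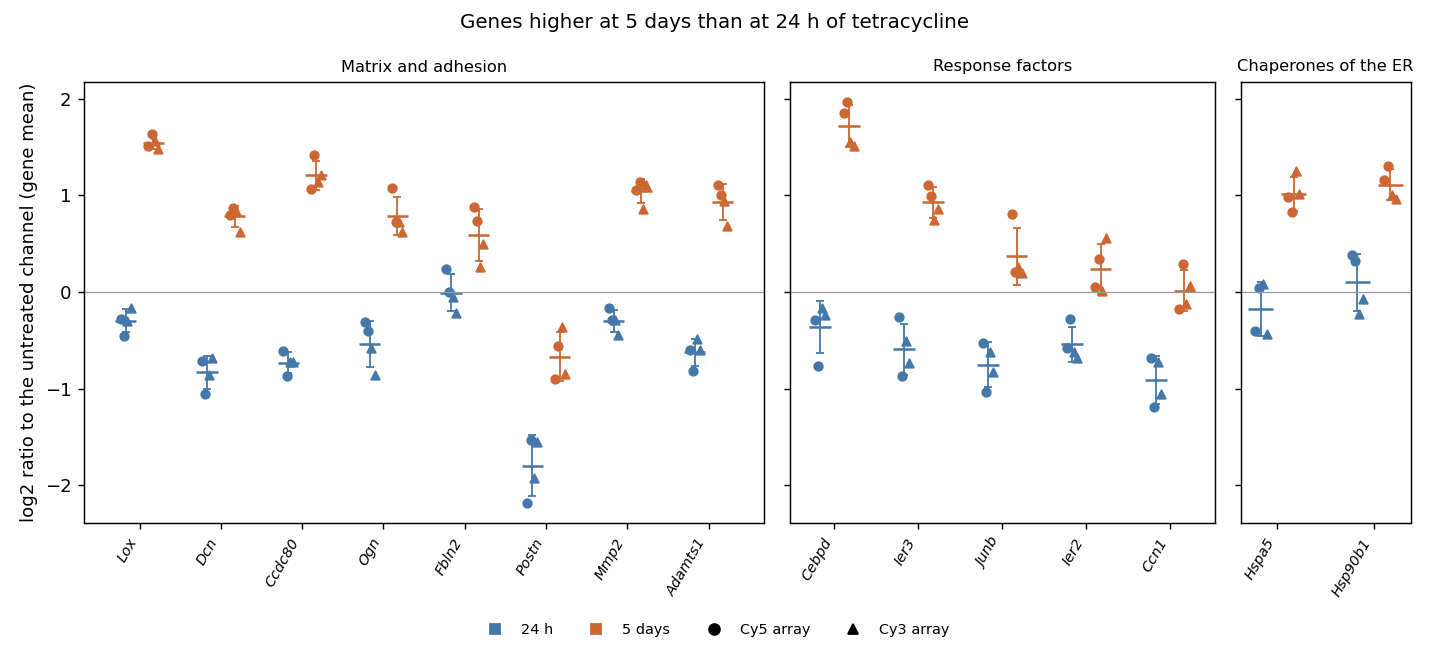
Gene mean log2 ratio to the untreated channel (y axis) of genes that were higher at 5 days, with 4 arrays a group, circles for Cy5 and triangles for Cy3 arrays, and bars for the mean and SD. The 5 day arrays of Lox lie at 1.48 to 1.64 and its 24 h arrays at -0.45 to -0.16, while Postn stays below 0 at both times.

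Transcription factors and early response genes rose with a few members. Cebpd, a C/EBP transcription factor that growth arrest and cytokines induce, was at -0.29, -0.76, -0.17 and -0.24 at 24 h and at 1.85, 1.96, 1.55 and 1.51 at 5 days. The groups were far apart, with a difference of 2.08 ± 0.17 (SE), 4.24-fold (limma, adjusted p = 5.82e-09). Of 11 immediate early genes tested, 3 rose (against 0.994% of all genes) and none fell (against 1.15%), with a median of 0.16. Ier3, a stress response gene linked to cell survival, went from -0.26, -0.87, -0.51 and -0.74 to 1.11, 0.99, 0.74 and 0.86, 2.87-fold higher, and 2 of its probes passed separately.

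Junb, a subunit of the AP-1 factor, went from -0.52, -1.04, -0.62 and -0.83 to 0.81, 0.21, 0.26 and 0.19, so most of its 5 day arrays stood just above 0. Ier2, a small early response protein, went from a mean of -0.54 to 0.24. Their differences were 1.12 ± 0.20 and 0.78 ± 0.18 (SE; limma, adjusted p = 0.001 and 0.0121). Both calls were absent from the model of the 8 arrays, while Cebpd and Ier3 passed there. The call on Ier2 was lost without 5d replicate 4 (0.63) or 24h replicate 1 (0.73). Egr1, another ERK target, lay in a stretch at the end of the table whose rows could not be placed at 5 days, so it was not tested.

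Saa3, an acute phase serum amyloid A that fibroblasts make under cytokines, was at -0.19, -0.12, -0.22 and 0.05 at 24 h and at 1.88, 1.73, 2.96 and 1.67 at 5 days. The 24 h arrays sat near 0 and the 5 day arrays were far above them, a rise of 2.18 ± 0.31 (SE), 4.53-fold (limma, adjusted p = 5.49e-05). Of 24 interferon and acute phase genes 3 rose (against 0.994% of all genes) and none fell (against 1.15%). The list had 18 positive differences and a median of 0.36, beside 4564 positive of 8955 over all genes. Besides Saa3 the 3 were Cxcl1, a chemokine for neutrophils (0.90 ± 0.20), and H2-K1, a classical MHC class I chain (1.89 ± 0.44). H2-K1 was scattered, from -0.69 to 0.70 at 24 h and from 1.01 to 3.21 at 5 days. Neither Cxcl1 nor H2-K1 passed in the model of the 8 arrays. The call on Cxcl1 was lost without 24h replicate 3 (0.78), and that on H2-K1 without 5d replicate 2 (1.84) or 3 (1.38) or 24h replicate 2 (1.65) or 4 (1.79).

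A few chaperones passed, with rises in the endoplasmic reticulum and falls in cytosol and mitochondria. Hspa5, the chaperone BiP, was at -0.40, 0.04, 0.09 and -0.43 at 24 h and at 0.98, 0.82, 1.25 and 1.01 at 5 days. Hsp90b1, also called GRP94, was at 0.38, 0.32, -0.22 and -0.07 at 24 h and at 1.16, 1.31, 1.00 and 0.96 at 5 days. These were the 2 of 23 unfolded protein response genes that rose, by 1.19 ± 0.30 and 1.01 ± 0.19 (SE; limma, adjusted p = 0.0271 and 0.00237), and none fell. The median of that list was 0.21, and of all genes 0.994% passed as higher and 1.15% as lower.

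Of 33 cytosolic and mitochondrial chaperones 3 fell (against 1.15% of all genes) and none rose (against 0.994%), with a median of -0.11. Ppia, the prolyl isomerase cyclophilin A, was at 0.80, 0.79, 0.88 and 0.75 at 24 h and at -0.45, -0.39, -0.92 and -0.86 at 5 days. Its groups were tight and far apart, with a difference of -1.45 ± 0.16 (SE; limma, adjusted p = 1.14e-06), 2.74-fold. The mitochondrial partners Hspd1 and Hspe1, which form a folding chamber and share a bidirectional promoter, fell by 0.65 ± 0.14 and 1.17 ± 0.26. Ppia and Hsp90b1 passed in the model of the 8 arrays, and Hspa5, Hspd1 and Hspe1 did not. The call on Hspe1 was lost without 5d replicate 1 (-1.02) or 24h replicate 3 (-0.98), and that on Hspa5 without any 1 of 6 arrays, at 1.06 to 1.24.

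The list of transformation and motility genes held the largest share of calls. Of 14 genes tested 7 fell and none rose, with a median difference of -1.09 against 0.01 over all genes tested and against a background of 1.15% of genes lower. The gene lists were chosen with earlier results of these data known, so this share describes the list and does not test it. S100a4, a calcium-binding protein that promotes motility and is also used as a fibroblast marker, was at 1.41, 1.41, 1.48 and 1.46 at 24 h. At 5 days it was at -0.87, -1.20, -0.65 and -0.77. It went from well above to below the typical ratio in all 4 arrays, and fell by 2.31 ± 0.25 (SE), 4.96-fold (limma, adjusted p = 7.88e-07).

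S100a6, or calcyclin, a relative of S100a4 that is raised in dividing cells, was at 1.13, 0.63, 0.94 and 1.21 at 24 h and at -1.22, -1.65, -1.03 and -1.06 at 5 days. It fell by 2.22 ± 0.23 (SE), 4.65-fold (limma, adjusted p = 5.8e-07), again with no overlap. S100a11 was at 0.54, 0.94, 0.60 and 0.85 at 24 h and at -0.22, -0.19, -0.55 and -0.29 at 5 days, 2.06-fold lower. S100a10, the light chain that pairs with annexin A2, was at 0.53, -0.04, 0.13 and 0.51 at 24 h and at -1.51, -1.26, -0.78 and -1.07 at 5 days. Its difference was -1.44 ± 0.32 (SE; limma, adjusted p = 0.00994) over 2 probes, of which 1 passed alone and the other did not. Anxa2, annexin A2 itself, was at 0.42, 0.31, 0.58 and 0.33 at 24 h and at -0.98, -0.90, -0.49 and -0.56 at 5 days.

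The galectins of the list also fell. Lgals3, galectin 3, a lectin of the cell surface and cytosol linked to transformation, was at 0.38, 0.81, 0.99 and 0.48 at 24 h and at -1.05, -0.66, -0.72 and -0.67 at 5 days, 2.71-fold lower (limma, adjusted p = 0.000412). Lgals1, galectin 1, was at 0.39, 0.15, 0.55 and 0.65 at 24 h and at -1.004, -0.66, -0.70 and -0.44 at 5 days, 2.2-fold lower (limma, adjusted p = 0.00251). For both, every 24 h array lay above 0 and every 5 day array below it. Of the 7 genes all but S100a11 passed in the model of the 8 arrays, and the call on S100a10 was lost without 24h replicate 1 (-1.32).

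The 12 S100a genes tested all lie on chromosome 3, where S100a10 and S100a11 are neighbours at a distance from the cluster of the other 10. Only S100a4, S100a6, S100a10 and S100a11 passed, all lower, against 1.15% of all genes. S100a5, which lies between S100a4 and S100a6, had a difference of -0.21 ± 0.35, and S100a3, a near neighbour of S100a4, of 0.25 ± 0.21. S100a8 and S100a9, which myeloid cells express, stood at -0.09 ± 0.42 and 0.12 ± 0.44. Standard errors of the genes that did not pass ran up to 1.12 for S100a14, so a change of the size seen for S100a11 was not detectable there.

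The upstream sequence of S100a4 is printed because the gene showed the largest called fall among the genes of these lists. The RefSeq table gives it on the plus strand of GRCm38.p6 at chr3:90603520-90603769, as the 250 bases ahead of the annotated start. The capitals mark TATAAA, the core of a TATA box, which was searched on both strands as TATAAA and TTTATA and occurs in 12.4% of 32851 promoters of the same length. S100a6 and S100a11 had no match, and S100a10 had no sequence in the table used.
S100a4: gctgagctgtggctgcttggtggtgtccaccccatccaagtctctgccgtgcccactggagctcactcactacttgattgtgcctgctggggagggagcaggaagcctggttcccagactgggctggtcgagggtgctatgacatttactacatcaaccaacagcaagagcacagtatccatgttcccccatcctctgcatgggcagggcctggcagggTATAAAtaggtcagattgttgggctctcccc

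A few cell cycle genes fell. Ccna2, cyclin A2, which drives S phase and entry into mitosis, was at 0.09, 0.56, 0.59 and 0.76 at 24 h and at -1.24, -0.67, -1.20 and -1.17 at 5 days. It fell by 1.57 ± 0.23 (SE), 2.96-fold (limma, adjusted p = 9.68e-05), and 1 of its 2 probes passed alone. Of 32 mitosis genes 2 fell (against 1.15% of all genes) and none rose (against 0.994%), with a median of -0.31. The other was Cdk1, the kinase that cyclin A2 and cyclin B activate, at 0.05, 0.02, 0.17 and 0.15 at 24 h and at -0.70, -0.71, -0.36 and -0.80 at 5 days.

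Of 31 S phase genes 3 fell (against 1.15% of all genes) and 1 rose (against 0.994%), with a median of -0.14. Pcna, the sliding clamp of DNA polymerase, was at 0.27, 0.03, 0.21 and 0.09 at 24 h and at -0.69, -0.86, -0.87 and -0.88 at 5 days, 1.96-fold lower (limma, adjusted p = 0.0011). Gins1, a subunit of the replicative helicase, fell by 0.87 ± 0.15. Uhrf1, which guides DNA methylation to newly made DNA, fell by 1.29 ± 0.32, with 5 day arrays from -1.45 to -0.33. Dnmt1, the maintenance DNA methyltransferase, went the other way, from 0.43, 0.35, 0.27 and 0.34 to 1.46, 1.401, 1.56 and 1.32, a rise of 1.09 ± 0.13 (SE; limma, adjusted p = 3.25e-06). Dnmt1 thus rose while Uhrf1, its partner at replication, fell, on 1 probe each.

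Most cell cycle genes did not pass. Top2a, the topoisomerase of dividing cells, had a difference of -0.997 ± 0.46 on 7 arrays, since 5d replicate 2 held no value. None of 18 growth arrest genes passed, among them Gas1 at 0.44 ± 0.15 and Btg2 at 0.60 ± 0.24. A single probe of Btg2 passed alone (0.71; limma, adjusted p = 0.00834), and its gene mean passed once the 3 day arrays were left out of the model. At 7 days minus 12 h Gas1 (1.38) and Btg2 (1.35) both passed (limma, adjusted p = 7.49e-07 and 0.000756). The 24 h and 5 day arrays of Gas1 and of Btg2 did not overlap, with all 5 day arrays higher. Over all genes 8.91% did not overlap, 4.14% higher and 4.77% lower. In the model of the 8 arrays Ccna2, Pcna and Dnmt1 passed, and Cdk1, Gins1 and Uhrf1 did not. The call on Cdk1 was lost without any 1 of 7 arrays (-0.75 to -0.67) and that on Uhrf1 without any 1 of 6 (-1.32 to -1.14).

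The upstream sequence of Cdk1 is printed because it carries 2 motifs known from promoters of cell cycle genes. Ccna2 and Gins1 had no sequence in the table used and were not searched. The RefSeq table places it at chr10:69352913-69353162 of GRCm38.p6, minus strand, and it is written 5′ to 3′ in the direction of the gene. The capitals mark CCAAT, the NF-Y site, also searched as ATTGG, and TTTGAA, the cell cycle genes homology region, also searched as TTCAAA. The Cdk1 sequence held 3 matches of the first and 2 of the second. Of the other fallen cell cycle genes, Pcna held 1 match of the first, and the promoters listed for Uhrf1 held 1 and 2. Neither Pcna nor Uhrf1 had a match of the second. The first motif is found in 33.8% and the second in 16.0% of the 32851 promoters of this length.
Cdk1: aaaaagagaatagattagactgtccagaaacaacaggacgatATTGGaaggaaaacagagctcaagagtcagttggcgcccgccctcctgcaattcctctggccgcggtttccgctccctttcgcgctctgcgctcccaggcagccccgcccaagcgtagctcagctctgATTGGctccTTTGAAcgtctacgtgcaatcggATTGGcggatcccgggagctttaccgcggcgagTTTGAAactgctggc

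Among genes of protein synthesis, calls were most frequent in cytosolic ribosomal proteins. Of 58 cytosolic ribosomal protein genes 10 fell (against 1.15% of all genes) and 1 rose (against 0.994%). Of the 58 differences 53 were negative, against 4391 of 8955 over all genes, and the median of the list was -0.55. Rplp0, a protein of the ribosomal stalk, was at 0.26, 0.19, 0.19 and 0.04 at 24 h and at -0.81, -0.65, -0.73 and -0.91 at 5 days, and both of its probes passed. It fell by 0.94 ± 0.13 (SE; limma, adjusted p = 5.2e-05). Rpl13a fell by 0.95 ± 0.15, Rps29 by 0.95 ± 0.17 and Rps28 by 0.96 ± 0.17. Their groups did not overlap, as in 94 of the 103 genes called lower. Rpl19, Rpl9, Rps20 and Rps26 fell by 0.67 to 0.97, and Rpl35 and Rps10 by 1.14 and 0.66.

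Rpl26 was the exception among the calls, at 0.59, 0.70, 0.38 and 0.32 at 24 h and at 1.16, 1.55, 0.89 and 1.09 at 5 days. Genes of this family have many near-identical pseudogene copies, and a cDNA spot cannot tell them apart. None of 61 mitochondrial ribosomal proteins passed, with a median of -0.09. Of the 37 translation factors 2 rose (Eif1a, Eif2d) and 3 fell (Eef1b2, Eif3h, Eif3m), against 0.994% higher and 1.15% lower over all genes. In the model of the 8 arrays Rplp0 and Rps26 passed and the others named here did not. Without 1 array the calls on Rps10 (8 arrays, -0.68 to -0.64), Rpl35 (6 arrays, -1.17 to -0.90), Eif3m (7 arrays, -0.75 to -0.64), Eif2d (3 arrays, 0.68 to 0.70), Eif3h (5d replicate 4, -0.57, and 24h replicate 1, -0.70) and Rpl26 (5d replicate 2, 0.59) were lost.

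Some respiratory chain genes fell as well. Of 70 oxidative phosphorylation genes 12 fell (against 1.15% of all genes) and none rose (against 0.994%). In the list 55 differences were negative, against 4391 of 8955 over all genes, and the median of the list was -0.42. Cox7b, a subunit of cytochrome c oxidase, was at 0.42, 0.46, 0.56 and 0.75 at 24 h and at -0.67, -0.47, -0.93 and -0.84 at 5 days. It fell by 1.27 ± 0.23 (SE; limma, adjusted p = 0.00148), 2.42-fold. The others were the complex I subunits Ndufa6 and Ndufc2, the complex III subunits Uqcr10, Uqcrc2 and Uqcrh, the oxidase subunits Cox5b and Cox6c, and the ATP synthase subunits Atp5b, Atp5g3, Atp5mpl and Atp5pb, with falls between 0.57 and 1.19. The arrays of the 2 times overlapped for Uqcrc2 and for no other of the 12. This is no trait of the list, since 94 of all 103 genes called lower did not overlap. Over all genes 8.91% did not overlap, 4.77% lower. Of the 12 only Cox7b passed in the model of the 8 arrays, and only Cox7b and Ndufc2 stayed past the threshold when any single array was left out. The calls on the other 10 were lost without any 1 of 4 to 8 arrays, at -1.22 to -0.51.

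Of 19 glycolysis genes 3 fell (against 1.15% of all genes) and none rose (against 0.994%), with a median of -0.17. They were Aldoa, Eno1b and Pkm, an aldolase, an enolase and a pyruvate kinase, at -0.56 ± 0.14, -0.95 ± 0.22 and -1.03 ± 0.27 (SE). Gapdh, the glycolytic enzyme often used for scaling, was at 0.68, 0.96, 1.22 and 0.75 at 24 h and at -0.47, -0.40, -0.32 and -0.44 at 5 days. Its gene mean had a difference of -1.31 ± 0.36 and just missed the threshold (limma, adjusted p = 0.0511), while 2 of its probes passed alone and the gene mean did pass in the model of the 8 arrays. Of the 7 reference genes tested, Ppia and Rpl13a fell and none rose, 5 differences were negative, and the median was -0.90. Actb, beta actin, stood at 0.05 ± 0.14. None of the 3 calls on glycolysis genes held in the model of the 8 arrays, and without 1 array those on Aldoa (7 arrays, -0.57 to -0.53), Pkm (8 arrays, -1.11 to -0.91) and Eno1b (3 arrays, -0.88 to -0.86) were lost.

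Redox and lipid genes gave some of the largest single falls. Txn1, thioredoxin, was at 0.63, 0.45, 0.66 and 0.88 at 24 h and at -0.88, -0.48, -0.68 and -0.78 at 5 days, 2.57-fold lower (limma, adjusted p = 4.12e-05). Mt1, the metal-binding metallothionein 1, was at 1.14, 0.75, 0.98 and 0.97 at 24 h and at -0.71, -2.20, -0.85 and -0.61 at 5 days. It fell by 2.05 ± 0.35 (SE), with replicate 2 the lowest array at 5 days. Its groups did not overlap, as the rule that named its probe requires. Hmgcs1, the synthase that feeds the mevalonate pathway to cholesterol, was at 0.52, 0.36, 0.57 and 0.47 at 24 h and at -0.99, -1.20, -1.12 and -1.02 at 5 days. Both of its probes passed, and the gene fell 2.95-fold (limma, adjusted p = 4.07e-05).

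Of 20 metal and oxidative stress genes 3 fell (against 1.15% of all genes) and none rose (against 0.994%), with a median of -0.17. The remaining one was Sod1 (-0.57 ± 0.14). Hmgcs1 was the single call among 22 genes of cholesterol and fatty acid synthesis, whose median was -0.33. Vim, the intermediate filament vimentin, was the single call among 31 actin and cytoskeleton genes, at 0.06, 0.18, 0.13 and 0.21 at 24 h and at -1.13, -1.01, -1.06 and -1.34 at 5 days. Both probes of Vim passed. In the model of the 8 arrays Txn1, Hmgcs1 and Vim passed and Mt1 and Sod1 did not. The call on Sod1 was lost without 5d replicate 2 (-0.56), 24h replicate 2 (-0.54) or 24h replicate 4 (-0.57).

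**Figure D3:**
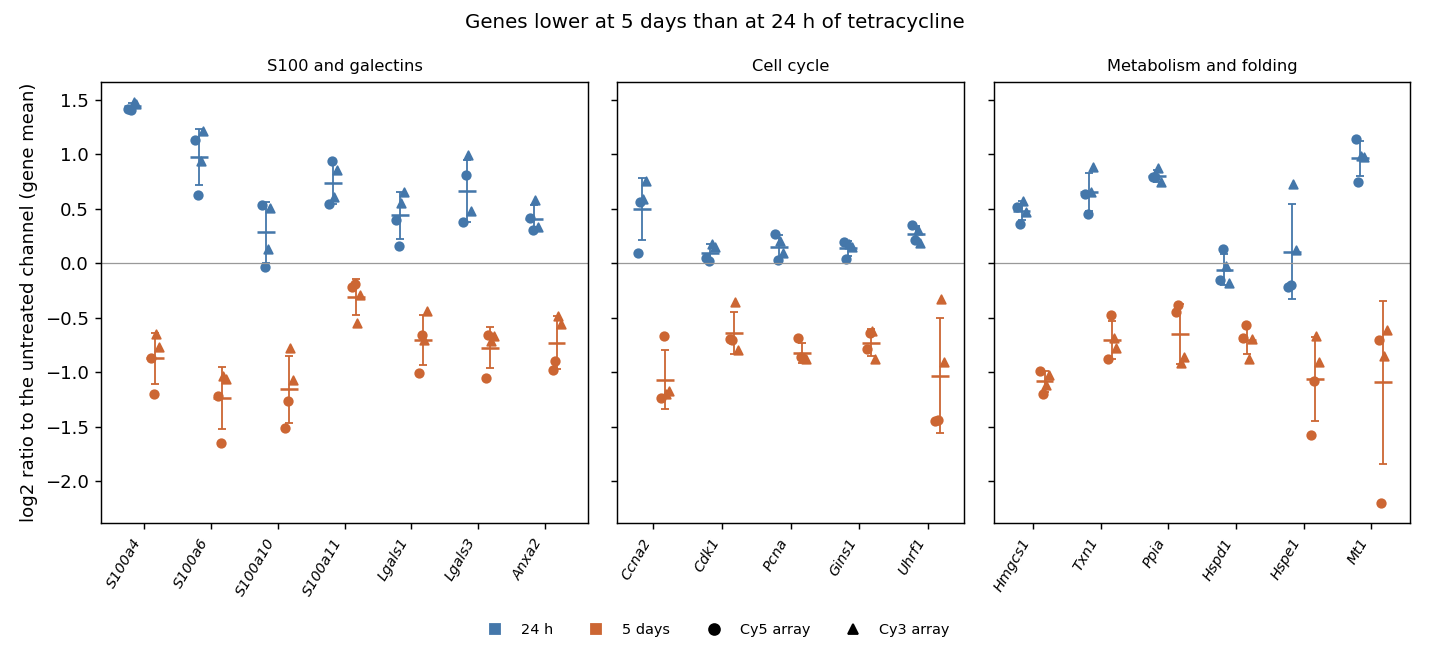
Gene mean log2 ratio to the untreated channel (y axis) of genes that were lower at 5 days, with 4 arrays a group, circles for Cy5 and triangles for Cy3 arrays, and bars for the mean and SD. S100a4 lies at 1.41 to 1.48 in all 4 arrays of 24 h and at -1.20 to -0.65 at 5 days, and Mt1 has a single low array at -2.20.

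Some lists gave no call. None of 8 ERBB receptors, ligands and ERK feedback genes passed, none of 35 proteasome genes and none of 46 lysosomal genes, with medians of 0.28, -0.14 and -0.15. Ctsl, a lysosomal protease, had a difference of -0.45 ± 0.17 (limma, adjusted p = 0.245). Of 24 genes of the TGF-beta and BMP pathway, Eng, the coreceptor endoglin, rose by 0.84 ± 0.16 on 2 probes, of which 1 passed alone, and the median was 0.29. The call on Eng did not hold in the model of the 8 arrays, and 0.994% of all genes passed as higher.

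Markers of other cell types were few. None of 9 epithelial, 6 macrophage and 6 endothelial markers passed, with medians of 0.09, -0.12 and -0.28. The endothelial cadherin Cdh5 had a gene mean of -1.19 ± 0.34 (limma, adjusted p = 0.0671) without overlap of the groups, and 1 of its probes passed alone at -1.27 (adjusted p = 0.000752). Of 12 fibroblast markers Dcn, Fbln2 and Prrx1 rose (against 0.994% of all genes) and S100a4 and Vim fell (against 1.15%). The markers thus did not move as a block. The call on Prrx1, a mesenchymal homeobox factor, was absent from the model of the 8 arrays and was lost without any 1 of 7 arrays, at 0.61 to 0.78. Of 6 adipocyte markers Lpl, the lipoprotein lipase, rose by 1.70 ± 0.41 (SE; limma, adjusted p = 0.0187), from 0.01, -1.11, -0.60 and -1.44 to 1.61, 1.08, 0.21 and 0.77, and the median of the 6 was -0.01. The call on the gene mean of Lpl did not hold in the model of the 8 arrays, and was lost without 5d replicate 1 (1.52), 24h replicate 2 (1.53) or 24h replicate 4 (1.53). The 1 probe of Lpl with enough values to be tested alone, at 1.95 ± 0.30, passed there.

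**Figure D4:**
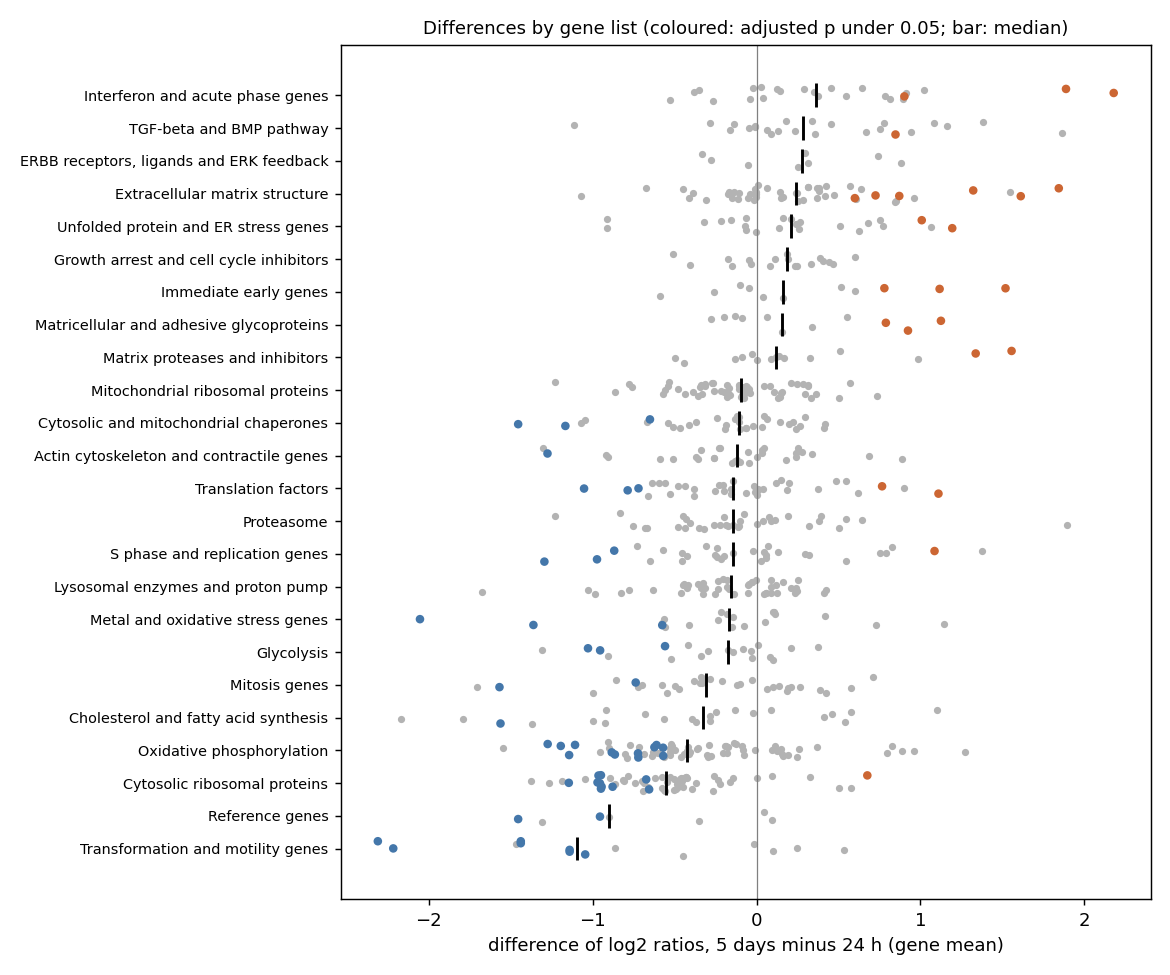
Each point is 1 gene of a list, placed by its log2 difference of 5 days minus 24 h (x axis), coloured where the adjusted p was under 0.05, with a bar at the median of the list. Lists of cell type markers are not drawn. The transformation and motility genes have a median of -1.09, the 7 reference genes of -0.90, the cytosolic ribosomal proteins of -0.55 and oxidative phosphorylation of -0.42.

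Among the largest differences of single probes, several rested on scattered arrays. The probe of Col4a1 with the largest rise stood at 5.34 in 5d replicate 3 and at 0.90, 0.38 and 1.02 in the others, and 2 further probes of the gene had differences of -0.43 and -0.14. The probes of Ddx21, an RNA helicase, and Ino80e, a chromatin remodeller subunit, fell by 3.36 ± 0.62 and 3.21 ± 0.74, but their other probes had differences between -0.23 and 0.17. A single probe of Egfr, the receptor that pairs with ERBB2, was at 0.61, 0.35, 0.52 and -0.05 at 24 h and at 2.29, 2.07, 2.65 and 2.51 at 5 days. The 4 other Egfr probes had differences from -0.62 to 0.38, and the mean over all 5 was 0.25 ± 0.19 (limma, adjusted p = 0.74). The transcripts that such a single probe reads were not tested.

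The remaining probes were those of Epha6, Nkap and Sox5, each the only one tested for its gene, and of Gata2, Trmt10a and Phospho2. Epha6 rose by 2.45 ± 0.49, Nkap by 2.44 ± 0.61 and Gata2 by 2.11 ± 0.58 on the log2 scale, and Sox5 fell by 1.72 ± 0.33. Trmt10a fell by 1.598 ± 0.26 and Phospho2 by 1.47 ± 0.20, and these 2 also passed in the model of the 8 arrays, as did Ddx21. The other 3 probes of Trmt10a had differences of 0.43, 0.41 and 0.18, the second probe of Gata2 of 0.046 and that of Phospho2 of -0.64, and none of these passed. Without 1 array the calls on Col4a1 (24h replicate 4, 2.33), Nkap (4 arrays, 1.75 to 2.40), Gata2 (5 arrays, 1.69 to 2.34) and Ino80e (5d replicate 3, -2.61, and 24h replicate 1, -2.98) were lost. Over all genes, 116 had a called probe and more than 1 probe tested, and in 65 of them every probe had the sign of the called one.

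The neighbouring times were measured on other arrays. The difference of 7 days minus 12 h called 337 of 17262 probes (1.95%) with the same model, 198 higher (1.15%) and 139 lower (0.805%). Over gene means 2.1% passed, 1.26% higher and 0.84% lower. Of the 270 probes higher at 5 days than at 24 h, 264 were tested there and 234 had the same sign, with 58 called the same way and 1 the opposite way. Of the 209 lower probes, 202 were tested and 187 had the same sign, with 45 called the same way and none the opposite way. The share with the same sign was 55.6% over all probes. The 12 h arrays of this comparison are among those whose dyes did not favour turning. Without the 3 day arrays 644 probes passed, 388 higher and 256 lower, all 337 among them. That fit again mainly changed the spread and is no separate test of the calls. The comparisons share no treated array, but all arrays carry the same second channel and enter 1 model.

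The size at 7 days minus 12 h differed from gene to gene. Lox (1.97), Ier3 (1.78), Ccna2 (-1.27), Lgals3 (-1.36) and S100a10 (-1.81) were about as far apart as at 5 days minus 24 h. Postn (2.71), Ogn (2.64), Junb (1.71) and Ier2 (1.51) were further apart, all past the threshold (limma, adjusted p between 1.2e-08 and 2.16e-06). Saa3 (0.31), Anxa2 (-0.26), S100a11 (-0.24), Vim (-0.47) and Dnmt1 (0.42) did not pass there. Cox7b (-0.30), Hmgcs1 (-0.54), Pcna (-0.55), Mmp2 (0.65) and Rpl13a (-0.33) were among further genes that did not. In the list of cytosolic ribosomal proteins only 1 gene was lower and 1 higher there, with a median of -0.18. Oxidative phosphorylation had 1 lower gene and none higher, with a median of -0.15. The difference between the 2 comparisons was not tested.

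The course over all groups is given for a few genes. Lox had a mean ratio of -1.32 ± 0.12 (SD) at 1 h and -0.30 ± 0.12 at 24 h, and stood at 0.70 ± 0.33 at 3 days, 1.54 ± 0.07 at 5 days and 1.39 ± 0.12 at 7 days. S100a4 was at 1.44 ± 0.03 at 24 h, 0.10 ± 0.93 at 3 days, -0.87 ± 0.23 at 5 days and -0.70 ± 0.18 at 7 days, beside 0.42 ± 0.29 in the untreated arrays (n = 3). Saa3 had a mean of 2.06 ± 0.61 at 5 days, with 0.11 ± 0.87 at 3 days and 0.45 ± 0.93 at 7 days. The 3 day arrays were the most scattered of the series, with a median SD of 0.731 between arrays, and before turning their dyes had mostly equal signs. At 3 days S100a4 was at -0.71 and -0.65 in the Cy5 arrays and at 0.61 and 1.15 in the turned Cy3 arrays, so its mean stands for neither dye. The same held for S100a6 (-1.51 and -1.02 in Cy5, 0.07 and 0.36 in turned Cy3) and Postn (-0.57 and -0.38, 0.91 and 0.17). Lox was at 0.24 and 0.65 in Cy5 and at 0.97 and 0.92 in turned Cy3 arrays, and Dcn was likewise above 0 in all 4. When the ratios crossed 0 cannot be fixed. Dcn, Adamts1 and Postn were already at -1.87 ± 0.09, -2.09 ± 0.20 and -1.90 ± 0.20 at 1 h of tetracycline, while the untreated arrays gave 0.02 ± 0.18, 0.15 ± 0.56 and -0.03 ± 0.29 (n = 3).

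**Figure D5:**
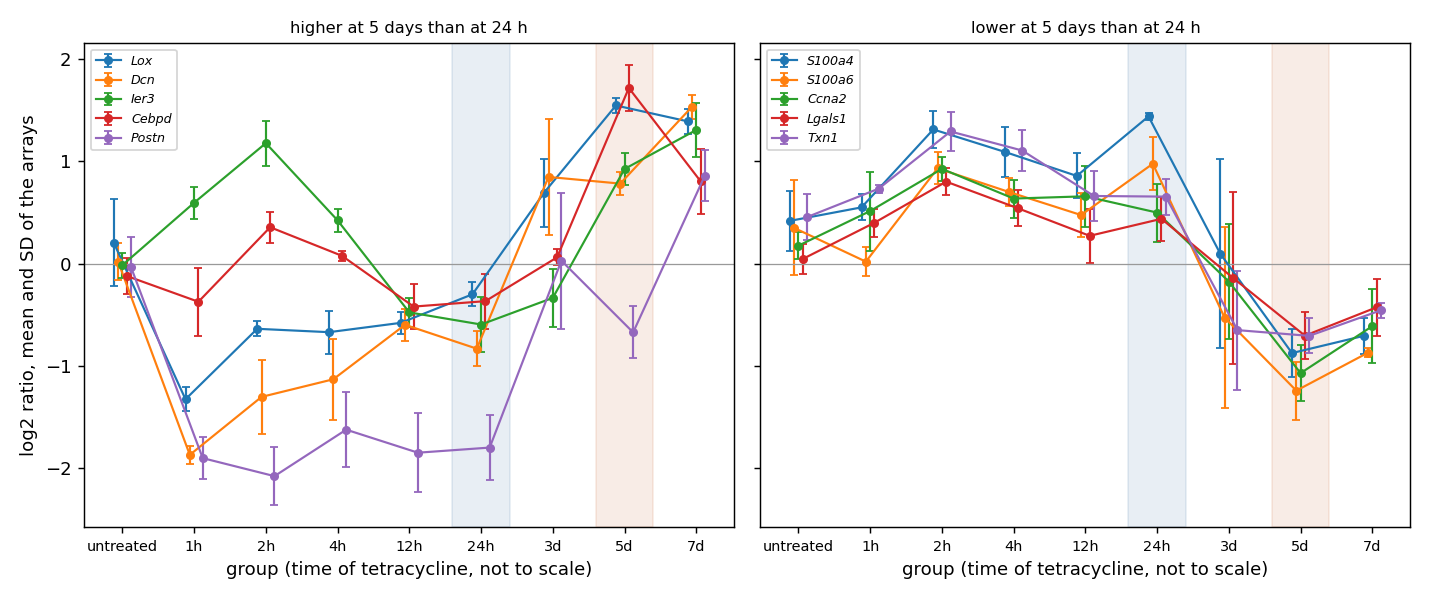
Mean log2 ratio to the untreated channel (y axis) with the SD of the arrays, for each time of tetracycline in order and not to scale (x axis), with 3 untreated arrays and 4 in every other group. The shaded bands mark 24 h and 5 days. Lox and Dcn are below 0 at 24 h and above it at 5 days, and S100a4 and S100a6 the reverse. The 3 day means have wide SDs and combine dyes that differ in sign for S100a4, S100a6 and Postn.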

How the data were processed

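Each array came as a column of log2 ratios between its channels, made and deposited by the authors. The software, the background correction, the normalization and the numerator are not given in the sources used here. The 2807 values above 12, near a ceiling at a ratio of 100000, were dropped. Arrays were centred on their medians, and Cy3 arrays were multiplied by -1. The arrays labelled untreated replicates 1 and 2 differed by a constant (0.771, SD 0.0005) and were counted once, which left 35 arrays. At 5 and 7 days values sat 1, 2, 3 and 4 rows early from probes 6056, 7338, 7818 and 18332 on. They were moved back, and in all 36 windows of 500 rows on each of these arrays the lag used gave the best match to the other times. The 489 probes near these points or from 20200 on were left out, with margins chosen after the fit of the rows was seen. Missing values of a 5 day array followed those of the other times at r of 0.128 to 0.157 as deposited and 0.401 to 0.442 moved back. The lags had been chosen from the same values and missing values, so neither match is a separate check.

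Of 20355 probes 14030 had 1 gene symbol, 5 had several and 6320 had none. Symbols were updated through RefSeq's table for GRCm38.p6, with 13994 probes matched by gene number, 16 by accession and 20 kept as given. Tests used limma 3.58.1 in R 4.3.3, with a mean for each group, 1 dye effect per probe and eBayes. A probe needed 3 values in each group, and p-values were adjusted by Benjamini-Hochberg over all probes, or over all genes for means over probes. Differences carry the model's SE and groups the SD of 4 arrays. The number of arrays limits the precision.

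The members and gene lists were chosen with earlier results of these data known. Named were up to 12 probes in each direction with the largest difference among calls without overlap, up to 4 genes of each list, and 13 genes by name. Of the list genes that did not pass, values are given for those 13, Egfr, Cdh5 and genes with an outlying array, and called list genes beyond 4 and the S100a genes were named after their values were seen.

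Both steps were tested on simulated data. All rows were placed right in 3 simulated sets of arrays. In simulated arrays of 5 days minus 24 h with 200 of 17671 probes changed, the outcome depended on the noise. When every probe had its own spread in each group, taken from its few arrays, 35 of 100 changes of 1 log2 unit and 75 of 100 changes of 2 units were found, but 116 of 226 calls were false, and 66 probes were called with no change at all. When a probe's spread was scaled by the typical spread of the group, a noise model adopted after that outcome was seen, 38 and 70 of 100 were found, 9 of 117 calls were false, and none were called with no change. The test assumes that a probe has the same spread in all groups, which neither case does. Which of them the arrays follow was not tested, so more of the 479 calls may be false than the threshold states.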

Additional observations from a re-analysis of the deposited data

Results flagged for a closer look

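Of 299 groups of 4 arrays checked for named probes and genes, 21 held an array whose gap to the nearest other array took up more of the group's range than Dixon's critical value for 4 samples allows. Chance flags about 1 in 20 such groups, and the values are given without explanation.

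Among the probes with the largest differences, that of Col4a1 stood at -1.86 against -0.59 to -0.36 for the other arrays in 24h replicate 4, and at 5.34 against 0.38 to 1.02 in 5d replicate 3. Ino80e stood at 1.61 against 0.22 to 0.34 in 24h replicate 1 and at -4.63 against -2.06 to -1.61 in 5d replicate 3. Saa3 was at 2.96 against 1.67 to 1.88 in 5d replicate 3, Mt1 at -2.20 against -0.85 to -0.61 in 5d replicate 2, and the probe of Lox at 0.052 against -0.53 to -0.46 in 24h replicate 1. The 2 times did not overlap for any of these probes, as the rule that named them requires.

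Among gene means at 5 days, Ccna2 was at -0.67 against -1.24 to -1.17 in replicate 2 and Junb at 0.81 against 0.19 to 0.26 in replicate 1. Lgals3 was at -1.05 against -0.72 to -0.66 and Pcna at -0.69 against -0.88 to -0.86 in replicate 1, and Rpl9 at -0.83 against -0.56 to -0.53 in replicate 4. At 24 h, Eef1b2 was at 0.40 against -0.062 to 0.006 in replicate 4, Ndufc2 at 0.24 against 0.12 to 0.14 and Rps20 at 0.19 against -0.16 to -0.13 in replicate 3, and Rps26 at -0.24 against 0.052 to 0.10 in replicate 2.

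The others were genes that did not pass between the 2 times. At 24 h Atp6v1a, a subunit of the proton pump, was at 0.19 against 0.39 to 0.40 and Plin1, a lipid droplet protein, at -0.66 against 0.12 to 0.15 in replicate 1. Krt8, a keratin, was at -0.27 against 0.14 to 0.18 in replicate 2. Lrig1, an inhibitor of ERBB receptors, was at 0.82 against -0.19 to -0.036 and Psma5, a proteasome subunit, at 0.62 against 0.36 to 0.39 in replicate 3.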

How the results depend on the processing

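The count of 479 probes (270 higher, 209 lower) depended on the model. It was 199 (119 and 80) with the 8 arrays alone, 864 (420 and 444) with a dye effect for each group, 209 (122 and 87) without centring and 250 (110 and 140) after quantile normalization. Fits added after seeing the data gave 886 (442 and 444) without the 3 day arrays and 627 (317 and 310) without those of 4 h, 12 h and 3 days. With 1 dye at a time it was 264 (152 and 112) on Cy5 and 309 (169 and 140) on Cy3 arrays. Among the 5530 probes ahead of the first slide it was 174 (102 and 72), and over gene means 192 (89 and 103). With the rows as deposited it was 189 (117 and 72). Array weights, values above 12 kept, and 4 or 2 values needed a group gave 470 to 500. Leaving out 1 array gave 339 to 477 probes, 196 to 277 higher and 140 to 200 lower. Replicate numbers did not pair the samples, with correlations of deviations of -0.014 to -0.004 between 5 days and 24 h, and the replicate block gave 460 (262 and 198). For 7 days minus 12 h, with 337 probes, the fit without the 3 day arrays gave 644 (388 and 256), the replicate block 328 (192 and 136), the rows as deposited 329 and leaving out 1 array 234 to 475, 137 to 282 higher and 91 to 207 lower.

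Of 98 named results that passed, on probes or gene means, 40 passed with the 8 arrays alone and 58 did not, and 38 were lost without at least 1 array. All 98 held without the 3 day arrays, and all but the Col4a1 probe, Uqcr10 and Atp5mpl without those of 4 h, 12 h and 3 days. Those fits keep all 8 arrays of the comparison and mainly change the spread. Of the 98 calls, 35 were lost after quantile normalization, 49 without centring and 12 with array weights. On Cy5 arrays alone 65 were lost, and on Cy3 arrays alone 50. Without turning the Cy3 arrays limma called 0 probes after Benjamini-Hochberg adjustment, 0 higher and 0 lower, with 1497 at an unadjusted p under 0.05, and 44 (25 and 19) for 7 days minus 12 h. The sign then changed for the probes of Col4a1 (-1.65), Saa3 (-0.22), Gata2 (-1.52), Egfr (-0.32), Lox (-0.029), H2-K1 (-0.084), Ino80e (0.46), Hmgcs1 (0.27), Lgals1 (0.023) and Phospho2 (0.31), and for the gene means of Actb (-0.051), Btg2 (-0.20), Ccna2 (0.29), Cdk1 (0.002), Cox7b (0.26), Ctsl (0.033), Cxcl1 (-0.43), Dnmt1 (-0.045), Eif2d (-0.07), Eif3h (0.26), Eng (-0.071), Eno1b (0.17), Gapdh (0.056), Gins1 (0.04), H2-K1 (-0.084), Hmgcs1 (0.03), Hsp90b1 (-0.12), Hspa5 (-0.11), Hspd1 (0.035), Hspe1 (0.043), Ier2 (-0.15), Mmp2 (-0.014), Ndufc2 (0.15), Ogn (-0.066), Pcna (0.054), Pkm (0.22), Postn (-0.004), Ppia (0.25), Rps28 (0.088), S100a11 (0.10), Saa3 (-0.22), Top2a (0.64), Txn1 (0.14), Uqcr10 (0.16), Vim (0.085), Atp5g3 (0.27), Atp5mpl (0.25), Atp5pb (0.26), Lgals1 (0.033), Rpl19 (0.21), Rpl35 (0.11), Rpl9 (0.042), Rps20 (0.31), Rps26 (0.092) and Uqcrc2 (0.043). With rows as deposited it changed for the probe of Egfr (-0.13) and the gene means of Actb (-0.065), Atp5b (0.16), Eif2d (-1.19), Eif3h (0.41), Gas1 (-0.21), Hspd1 (0.063), Rplp0 (0.48), Rps28 (0.41), Ndufa6 (0.16), Rpl35 (0.18), Rpl9 (0.026), Rps10 (0.35) and Uqcrh (0.08), since those rows then hold another probe's values. Actb, near 0 throughout, was at -0.002 without centring and -0.006 on Cy5 arrays.

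Brightness was not analysed here, so how far a ratio lies above background is unknown.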
